A study of Sus scrofa with 9 samples.

Results

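Resident macrophage marker genes were followed by name in RNA sequencing of porcine donor hearts. The set holds 10 genes (CD163, CD68, CSF1R, MRC1, LYVE1, MARCO, C1QA, C1QB, C1QC and AIF1), and its members were the rows of the deposited table that carry one of these symbols, across 9 hearts in 3 groups of 3. Of the 10 genes, 6 were listed among the 25149 genes of the table, namely CD68 (ENSSSCG00000017956), CSF1R (ENSSSCG00000014441), MRC1 (ENSSSCG00000011038), LYVE1 (ENSSSCG00000029886), MARCO (ENSSSCG00000015716) and C1QA (ENSSSCG00000003524). The other 4, CD163, AIF1, C1QB and C1QC, were not found under these symbols and were not analysed here.

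All hearts came from female American Yorkshire pigs aged 4 to 6 months in a simulated donation after circulatory death (DCD), with 15 min of warm ischemia, and every heart was reanimated for 2 h by normothermic machine perfusion (NMP) in a circuit primed with donor whole blood. Group 2 (pigs 24, 25 and 29, labelled NRP + SCS 2 h) received 60 min of normothermic regional perfusion (NRP, warm blood circulated inside the donor before the heart is removed) and then 2 h of static cold storage (SCS) at 4 °C. Group 1 (pigs 27, 28 and 30, labelled NRP + HOPE 24 h) received the same NRP and then 24 h of hypothermic oxygenated perfusion (HOPE) at 8 °C. Group 3 (pigs 31, 33 and 34, labelled No NRP + HOPE 2 h) was procured directly and kept for 2 h in HOPE at 8 °C. The HOPE perfusate contained red blood cells. NRP, storage method and storage temperature therefore changed together between Groups 2 and 3, method, duration and temperature of storage between Groups 1 and 2, and NRP and storage duration between Groups 1 and 3, so that within each comparison these factors cannot be told apart. RNA came from 1 flash frozen apex biopsy per heart taken at the end of NMP, and the values describe whole myocardium after warm reperfusion, although the labels name cardiomyocytes as the cell type.

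Resident cardiac macrophages live between the cardiomyocytes, take up dying cells, debris and old mitochondria, and are kept alive by signalling through the CSF1 receptor. They are commonly recognised by scavenger and endocytic receptors such as CD163, MRC1, LYVE1 and MARCO, by the lysosomal protein CD68, and by abundant synthesis of C1q, the recognition molecule of the classical complement pathway. None of these genes is exact: LYVE1 is also made by lymphatic endothelium, MRC1 by some endothelial and dendritic cells, and CD68 by other cells rich in lysosomes.

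In these biopsies 5 members were detected in every heart and 1, MARCO, lay near the limit of the table. The levels are TPM, in which reads are divided by gene length and scaled to a total of 1000000 in each heart. Genes can thus be ranked by level, as far as their annotated lengths are right. By the mean over the 9 hearts C1QA stood first with 82.9 TPM, followed by CD68 with 21.8, LYVE1 with 7.16, MRC1 with 6.19, CSF1R with 0.927 and MARCO with 0.173 TPM. C1QA ranked between 431 and 2036 among all genes of a heart, CD68 between 1940 and 3895, and CSF1R between 9109 and 13730.

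Neighbours in this order were then set side by side within each heart, as a description, since the same 9 hearts set the order. C1QA exceeded CD68 in 8 of 9 hearts, with a median ratio of 4.41, and CD68 exceeded LYVE1 in 9 of 9 hearts, with a median ratio of 3.40. LYVE1 and MRC1 had no fixed order: LYVE1 was higher in 5 of 9 hearts, with ratios from 0.699 to 2.23. MRC1 exceeded CSF1R in 9 of 9 hearts by 3.05 to 63.9 times, and CSF1R exceeded MARCO in 8 of 9, of which 3 had MARCO listed at 0.

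**Figure D1:**
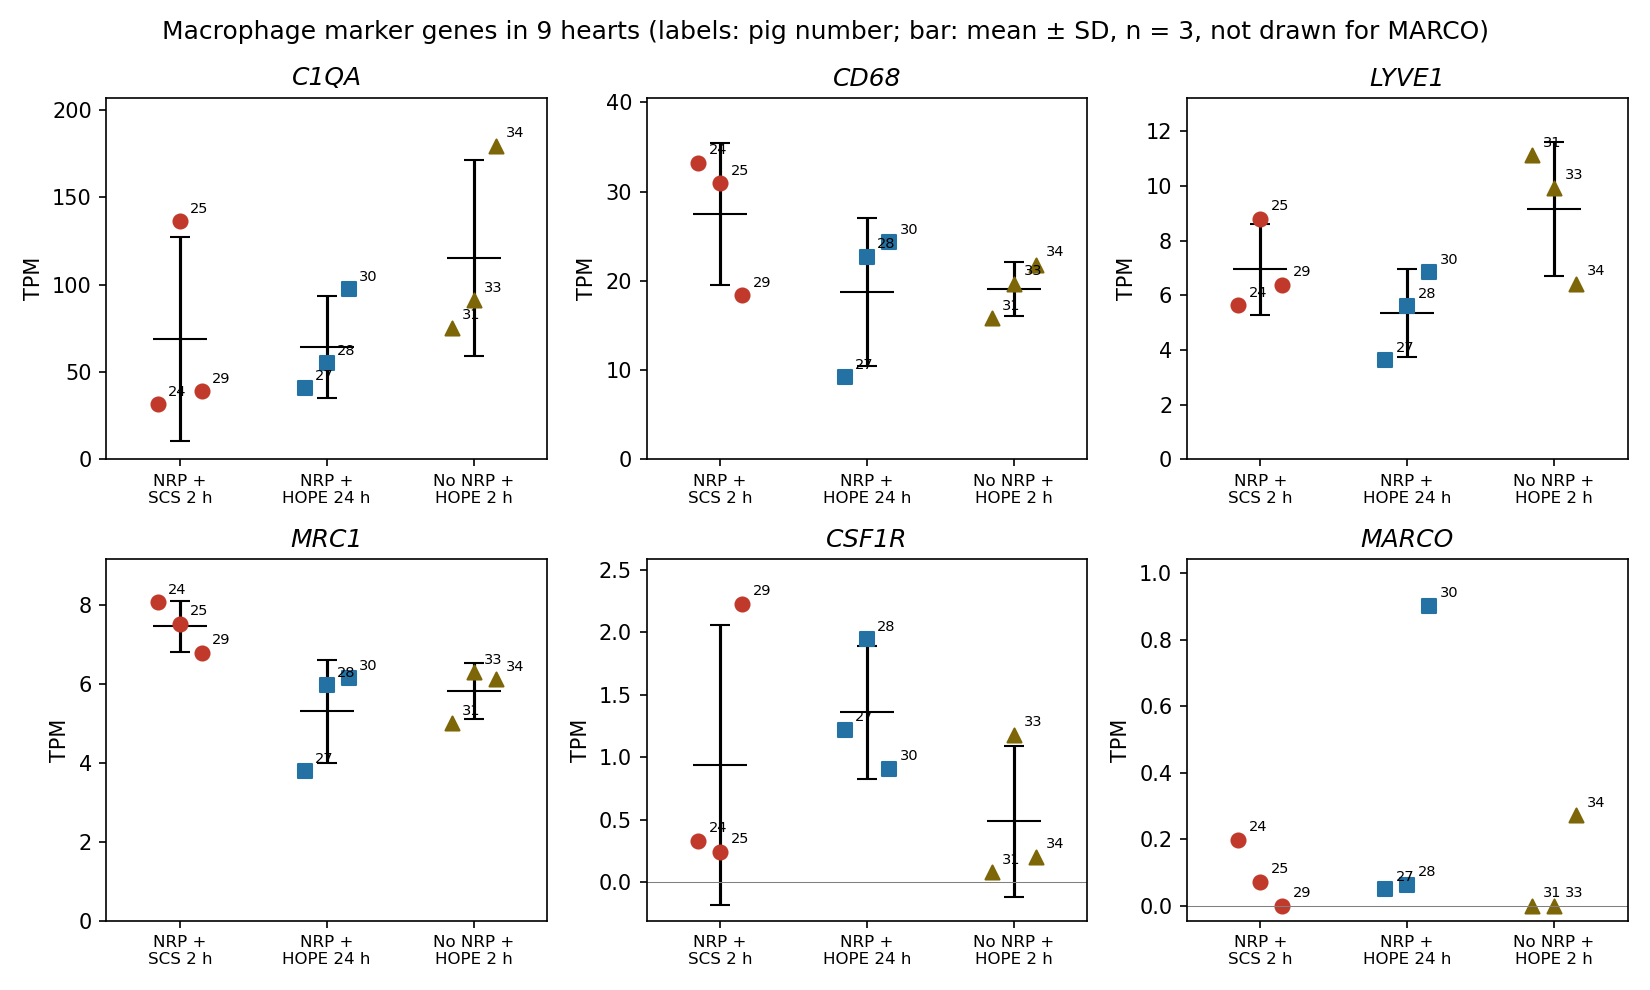
TPM of the 6 listed members in each heart, by group, with linear axes that differ between panels; points carry the pig number and bars give the mean ± SD of 3 hearts, which is not drawn for MARCO because 3 hearts are listed at 0. Groups overlap in all panels except MRC1, where the 3 Group 2 hearts (6.79 to 8.08 TPM) lie above the 6 HOPE hearts (3.78 to 6.30 TPM).

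The question for each gene was whether 24 h of HOPE instead of 2 h of SCS, or procurement without NRP followed by 2 h of HOPE, went with another level of the marker. A limma model of log2(TPM + 1), with 1 mean for each group, covered the 11782 genes that reached 1 TPM in 3 or more of the 9 hearts. A gene was called when its adjusted p was below 0.05 and its log2 fold change exceeded 1 in size. Of the 6 listed members 5 entered the test and MARCO did not. Between Group 1 (24 h HOPE) and Group 2 (SCS), 0 of the 5 were called, against 0.0255% of all genes tested, and 0 had an unadjusted p under 0.05, against 4.97%. Between Group 3 (no NRP) and Group 2, 0 of the 5 were called (0.0509% of all genes) and 0 had an unadjusted p under 0.05 (7.22%). Between both HOPE groups, Group 1 and Group 3, again 0 were called (0.0509%) and 0 had an unadjusted p under 0.05 (6.01%). The test over all 3 groups at once called 0 members, against 0.102% of all genes, with limma adjusted p-values from 0.88 to 0.938. An unadjusted p under 0.05 in this test was reached by 0 members and 6.26% of all genes. In bulk tissue fewer macrophages and less RNA per macrophage cannot be told apart.

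Among the endocytic receptors, MRC1, the mannose receptor that clears mannose-rich glycoproteins, was the member with the most even level. It stood at 8.08, 7.53 and 6.79 TPM in pigs 24, 25 and 29 of Group 2. The Group 1 hearts had 3.78, 5.97 and 6.15 TPM in pigs 27, 28 and 30, and the Group 3 hearts 5.0, 6.30 and 6.13 TPM in pigs 31, 33 and 34. All 3 SCS hearts therefore lay above all 6 HOPE hearts, and MRC1 was the only member whose groups did not overlap. Of all genes tested, 9.82% did not overlap between Group 1 and Group 2 (7.32% with the HOPE group lower) and 14.7% did not between Group 3 and Group 2 (10.3% lower), against 1 member of 5 in each. Between Groups 1 and 3 it was 0 members of 5 and 7.48% of all genes.

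The group means of MRC1 were 7.46 ± 0.646 TPM (SD, n = 3 hearts) in Group 2, 5.30 ± 1.32 in Group 1 and 5.81 ± 0.708 in Group 3. The log2 fold change of Group 1 over Group 2 was -0.45 (SE 0.29, 95% interval -1.08 to 0.19, limma adjusted p = 0.993) and -0.26 without pig 27, and that of Group 3 over the same SCS hearts was -0.32 (interval -0.95 to 0.32, limma adjusted p = 0.885). For each contrast the exact permutation test gave p = 0.1, the smallest that 3 hearts against 3 allow. The separation depended on the scale. With the mitochondrially encoded genes left out the SCS hearts lay above the HOPE hearts (lowest SCS heart 14.4, highest HOPE heart 13.2), but after median-of-ratios scaling, which sets 1 factor per heart from genes above 0 in all hearts, pig 28 at 6.52 and pig 31 at 6.40 passed pig 29 at 6.32. The spread of MRC1 within groups, 0.22 on the log2 scale, lay at percentile 4.73 of all genes tested (median 0.42).

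LYVE1, a hyaluronan receptor of resident macrophages and of lymphatic vessels, had its highest levels in Group 3. It was at 11.1, 9.94 and 6.43 TPM in pigs 31, 33 and 34 of Group 3, at 3.64, 5.60 and 6.83 TPM in pigs 27, 28 and 30 of Group 1, and at 5.65, 8.81 and 6.39 TPM in pigs 24, 25 and 29 of Group 2. Pigs 31 and 33 exceeded all other hearts, while pig 34 lay within the range of both other groups. The means were 9.17 ± 2.45, 5.36 ± 1.61 and 6.95 ± 1.65 TPM in that order (SD, n = 3). Group 1 was lower than Group 3 by a log2 fold change of -0.68 (SE 0.33, interval -1.39 to 0.03), which did not pass the test (unadjusted p of 0.0583, limma adjusted p = 0.846). The other LYVE1 contrasts were -0.34 for Group 1 (-0.12 without pig 27 and -0.17 without pig 25) and 0.34 for Group 3 (0.20 without pig 31, 0.23 without pig 24 and 0.56 without pig 34), each over Group 2. An exact permutation test of LYVE1 over the 280 divisions of the hearts into 3 groups gave p = 0.118, and the same test gave p = 0.121 for MRC1.

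Markers of lymphatic endothelium were measured beside LYVE1. The summed level of 5 listed of 7 lymphatic genes ranged from 20.8 to 38.8 TPM in Group 3, from 16.7 to 42.9 in Group 2 and from 30.8 to 63.1 in Group 1. Of these 5 genes 4 were tested, and 0 had an unadjusted p under 0.05 in any comparison. PDPN made up most of the sum. In Group 1 over Group 3, where LYVE1 was lower, 3 of the 4 tested genes had a higher mean of log2(TPM + 1) and 1, FLT4, a lower one (median 0.23, all genes -0.03). The part of lymphatic vessels in the LYVE1 values was not tested.

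MARCO, a scavenger receptor best known from macrophages of the lung and spleen, was listed at 0 in pigs 29, 31 and 33. The remaining hearts had 0.198 (pig 24), 0.0723 (pig 25), 0.0485 (pig 27), 0.0632 (pig 28), 0.903 (pig 30) and 0.273 TPM (pig 34). No heart reached 1 TPM, so MARCO could not enter the test, and without read counts it is not known how many reads lie behind these values. In the RefSeq annotation of Sscrofa11.1 MARCO is the only listed member that overlaps another gene, and the library kit does not mark strand.

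CD68, a glycoprotein of the late endosome and lysosome and the general marker of phagocytes, was the second most abundant member. In Group 2 it stood at 33.2, 30.9 and 18.4 TPM (pigs 24, 25 and 29), in Group 1 at 9.17, 22.7 and 24.3 TPM (pigs 27, 28 and 30), and in Group 3 at 15.8, 19.7 and 21.8 TPM (pigs 31, 33 and 34). Pigs 24 and 25 had the highest values of the series, but pig 29 of the same group lay below 4 of the 6 HOPE hearts. The means were 27.5 ± 7.97, 18.7 ± 8.33 and 19.1 ± 3.03 TPM (SD, n = 3), with log2 fold changes over Group 2 of -0.60 for Group 1 (SE 0.37, interval -1.40 to 0.21, limma adjusted p = 0.993) and -0.47 for Group 3 (interval -1.28 to 0.33, limma adjusted p = 0.861). The first of these was -0.18 without pig 27.

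Pig 27 of Group 1 was the lowest of the 9 hearts in CD68, MRC1 and LYVE1. It also had the fewest genes at or above 1 TPM, 10285 against up to 11496 in pig 30, and the largest share of TPM on the 13 mitochondrially encoded protein genes, 55.3% against 38.2% in pig 30. With those genes left out pig 27 was still the lowest in all 3 markers, whereas after median-of-ratios scaling it was the lowest in CD68 and LYVE1 and pig 30 was the lowest in MRC1.

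CSF1R, the receptor for CSF1 and IL34 on which macrophage survival depends, was the least abundant member tested and the one with the widest range in fold. It was at 0.333, 0.243 and 2.23 TPM in pigs 24, 25 and 29 of Group 2, at 1.22, 1.94 and 0.909 TPM in pigs 27, 28 and 30 of Group 1, and at 0.0782, 1.18 and 0.204 TPM in pigs 31, 33 and 34 of Group 3. Highest and lowest heart differed by 28.5 times, and each group except Group 1 held 1 heart above 1 TPM beside 2 hearts below 0.4. The means were 0.934 ± 1.12, 1.36 ± 0.531 and 0.487 ± 0.603 TPM. Group 1 over Group 3 gave a log2 fold change of 0.71 (interval -0.22 to 1.64, limma adjusted p = 0.915), over Group 2 0.41 (interval -0.52 to 1.34), and Group 3 over Group 2 -0.31 (interval -1.24 to 0.62). Adding 1 to such low levels shrinks their differences, and with 0.1 added instead the 3 values were 1.77, 0.99 and -0.77, none of them called.

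C1QA, the A chain of C1q, is the only C1q chain listed here, and on the log2(TPM + 1) scale its SD pooled over the groups was larger than that of the other markers tested, although within Group 1 CD68 varied more. Group 2 had 31.5, 136 and 38.9 TPM in pigs 24, 25 and 29. Group 1 had 40.8, 55.1 and 97.3 TPM in pigs 27, 28 and 30, and Group 3 had 75.5, 91.1 and 180 TPM in pigs 31, 33 and 34. The No NRP hearts were higher than 4 of the 6 hearts with NRP, but pig 25 exceeded 2 of them and pig 30 did too. The spread within groups was 0.83 on the log2 scale, larger than that of 93.7% of the genes tested.

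The C1QA means were 68.9 ± 58.5 TPM (SD, n = 3) in Group 2, 64.4 ± 29.4 in Group 1 and 115 ± 56.2 in Group 3. Group 3 over Group 2 gave a log2 fold change of 0.95 (SE 0.51, interval -0.15 to 2.04), which did not pass the test (unadjusted p of 0.0843, limma adjusted p = 0.749). CSF1R in Group 1 over Group 3 differed by more than this with 0.1 added in place of 1, and with mitochondrially encoded genes left out (1.06). Single hearts moved the C1QA difference, to 1.59 without pig 25, 0.55 without pig 24 and 0.58 without pig 34. Group 1 differed from Group 2 by 0.12 (interval -0.97 to 1.22) and from Group 3 by -0.82 (interval -1.91 to 0.27, limma adjusted p = 0.923), which was -0.45 without pig 34 and -0.54 without pig 27.

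**Figure D2:**
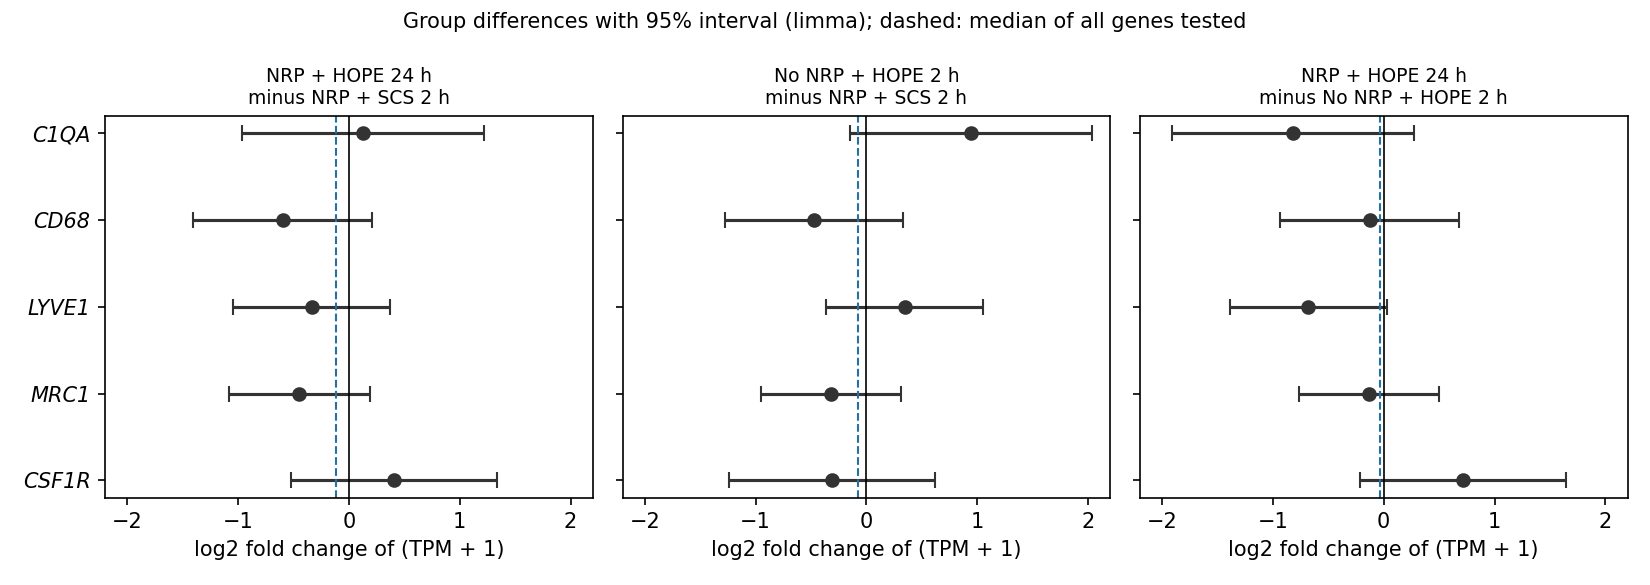
Log2 fold changes of TPM + 1 for the 5 tested members in the 3 comparisons, with limma's 95% intervals; the solid line marks 0 and the dashed line the median of all 11782 genes tested (-0.12, -0.07 and -0.03). All 15 intervals include 0, and the LYVE1 interval in the comparison of both HOPE groups reaches only to 0.03.

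Over the 5 tested members the median log2 fold change was -0.34 for Group 1 over Group 2, -0.31 for Group 3 over Group 2 and -0.13 for Group 1 over Group 3, against -0.12, -0.07 and -0.03 over all genes tested. Single hearts moved these medians, the first to -0.12 and the third to 0.057 without pig 27, and the second to 0.14 without pig 29. The first and second comparison share the SCS hearts. By the mean of log2(TPM + 1), 3 members were lower and 2 higher in the HOPE group in each of them, while 64.1% and 57.7% of all genes were lower. In Group 1 against Group 3 it was 4 members and 53.9% of all genes lower. Over Group 2, CD68 and MRC1 were lower in both HOPE groups, and LYVE1 and CSF1R had opposite signs in the 2 comparisons. C1QA was higher in both on this log scale, but its mean in TPM was lower in Group 1 than in Group 2 (64.4 against 68.9). Single hearts turned the signs of CSF1R and C1QA. CSF1R in Group 3 over Group 2 was 0.14 without pig 29, and C1QA in Group 1 over Group 2 was -0.27 without pig 24. The intervals were widest for C1QA, and the one in Group 3 over Group 2 reached a fold of 4.11 at its upper bound.

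Of the 10 pairs among the 5 tested members, only CD68 and MRC1 were correlated across the 9 hearts after adjustment (Pearson r = 0.93, exact permutation p = 0.000763, Benjamini-Hochberg adjusted p = 0.00763). Spearman's rho for this pair was 0.72 (exact p = 0.0369, adjusted p = 0.369). Pigs 24 and 27 lay at the ends, and without them r was 0.73 over 7 hearts (exact permutation p = 0.0677), so that the relation rests in part on these hearts. It was 0.95 after group means were subtracted, 0.87 with mitochondrially encoded genes left out (exact permutation p = 0.00201) and 0.78 after median-of-ratios scaling (exact permutation p = 0.014). The p-values on these other scales were not adjusted for the 10 pairs. For the other 9 pairs r lay between -0.48 (CSF1R and C1QA) and 0.50 (LYVE1 and C1QA), with adjusted exact p-values of 0.624 or more. CSF1R had a negative r with each of the other 4, from -0.14 to -0.48.

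Ratios between members within a heart cannot be moved by the scaling of that heart, and 6 such ratios were compared after the levels had been seen. CD68 was 2.42 to 4.11 times MRC1 in every heart, a range of 1.70 times, with group means of 3.64 ± 0.807, 3.39 ± 0.845 and 3.28 ± 0.241 (SD, n = 3) in Groups 2, 1 and 3 and an exact 3-group p of 0.868. This ratio rests on the same values as the correlation of both genes and adds no separate evidence to it.

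Ratios with C1QA and LYVE1 ranged more widely between hearts, but none of the 6 ratios passed an exact test between groups. The C1QA to CD68 ratio was 0.947, 4.41 and 2.11 in pigs 24, 25 and 29 of Group 2, 4.45, 2.43 and 4.0 in pigs 27, 28 and 30 of Group 1, and 4.77, 4.63 and 8.23 in pigs 31, 33 and 34 of Group 3. The 3 hearts without NRP thus lay above the 6 hearts with NRP, by a margin of 4.63 against 4.45. The exact permutation test over the 3 groups gave p = 0.0607, before any adjustment for the 6 ratios. The LYVE1 to MRC1 ratio was 2.23, 1.58 and 1.05 without NRP and between 0.699 and 1.17 in the 6 hearts with NRP (exact permutation p = 0.104), and the other 3 ratios had exact p-values from 0.189 to 0.657.

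**Figure D3:**
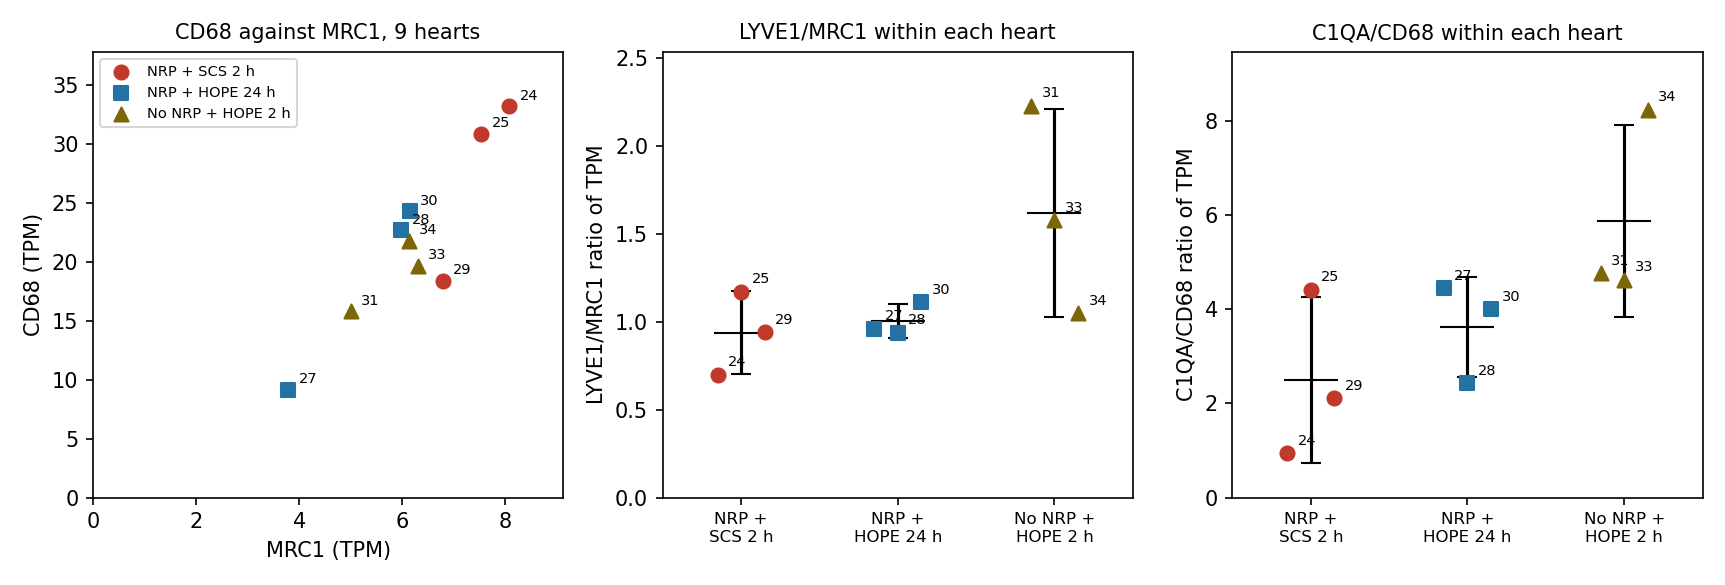
Left, CD68 against MRC1 in TPM, 1 point per heart with its pig number; middle and right, the LYVE1 to MRC1 and C1QA to CD68 ratios of TPM within each heart by group, with mean ± SD (n = 3). Pig 27 is lowest and pig 24 highest in both CD68 and MRC1, and the C1QA to CD68 ratio is above 4.6 in the 3 hearts without NRP and at most 4.45 in the others.

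Other genes of the macrophage programme were read from fixed lists. Among the ligands and transcription factors around CSF1R, 6 of 15 genes were listed and 5 tested, with 0 called in any comparison. SPI1, the transcription factor PU.1 that specifies myeloid cells, was at 17.1 ± 4.14, 17.0 ± 8.81 and 19.0 ± 4.61 TPM in Groups 2, 1 and 3 (SD, n = 3), with log2 fold changes between -0.24 and 0.14. CEBPA, a further myeloid transcription factor, was at 7.81, 13.5 and 14.0 TPM in pigs 31, 33 and 34 and at 5.21, 5.82 and 6.68 TPM in the SCS hearts, a log2 fold change of 0.85 that was not called (unadjusted p of 0.0341, limma adjusted p = 0.657). The remaining 4 of the 5 had an unadjusted p above 0.05 in every comparison.

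A list of 20 further resident macrophage genes had 17 listed and 12 tested, with 0 called in any comparison and medians of 0.08, 0.13 and -0.34 in the 3 comparisons in the order given above. Single hearts moved the first median to -0.20 (without pig 30) and 0.31 (without pig 27). The second moved to 0.03 (without pig 34) and 0.34 (without pig 24), and the third to -0.04 (without pig 27) and -0.63 (without pig 30). The summed level of this list was 139 to 153 TPM in Group 2, 93.7 to 209 in Group 1 and 107 to 352 in Group 3, and SLC40A1, the iron exporter, was listed at 0 in all hearts. FOLR2, a folate receptor that marks tissue macrophages together with LYVE1, was at 14.8, 15.4 and 9.22 TPM in pigs 31, 33 and 34 and at 7.64, 8.97 and 9.98 TPM in the SCS hearts (log2 fold change 0.49, limma adjusted p = 0.803). As with LYVE1, pigs 31 and 33 were high and pig 34 was not. MERTK, a receptor for the engulfment of dead cells, was at 6.63 ± 2.93, 5.40 ± 2.17 and 7.34 ± 2.57 TPM in Groups 2, 1 and 3.

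TLR4 and FCGR1A were the genes of this list with an unadjusted p under 0.05, 1 of 12 in Group 1 against Group 2 (4.97% of all genes) and 2 of 12 in Group 1 against Group 3 (6.01%). TLR4, the endotoxin receptor, was at 6.39, 4.73 and 9.33 TPM in Group 1, above the 2.86 to 4.18 TPM of the SCS hearts and the 2.02 to 2.89 TPM of the hearts without NRP, but was not called (9.82% and 7.48% of all genes did not overlap in these comparisons; log2 fold changes 0.72 and 1.13, limma adjusted p = 0.972 and adjusted p = 0.403). FCGR1A, the high-affinity IgG receptor, was at 30.7 TPM in pig 34 against 1.35 to 4.51 TPM in the other 8 hearts. Its log2 fold change of Group 1 over Group 3 was -1.73 (limma adjusted p = 0.658), and it was -0.78 without pig 34. All 3 Group 3 hearts lay above the Group 1 hearts (1.42 to 1.76 TPM), with 7.48% of all genes not overlapping.

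Pig 34 was also the highest heart in C1QA and in 3 of 6 tested genes that act with C1q. SERPING1, the C1 inhibitor, was at 215 TPM in pig 34 and at 70.1 to 135 TPM in the other hearts, C2 at 10.2 against 1.06 to 4.26 TPM, and C4A at 15.7 against 0.706 to 2.89 TPM. The other 3 were highest elsewhere, C3 and CALR in pig 30 (6.71 and 381 TPM, against 3.21 and 290 TPM in pig 34) and CD93 in pig 33 (114 TPM, against 35.5 TPM). Of 10 genes that form the C1 complex, bind or inhibit it or follow it, 7 were listed and 6 tested, with 0 called in any comparison. By the mean of log2(TPM + 1) 5 of the 6 were higher and 1 lower in Group 3 than in Group 2, against 42.2% of all genes higher (median log2 fold change 0.40, all genes -0.07). Without pig 34 the median was 0.11 with 4 higher and 2 lower, C4A went from 0.71 to -0.14 and C2 from 0.50 to 0.014. SERPING1 did not overlap between Groups 3 and 2, as 4.44% of all genes did not with Group 3 higher (120 to 215 against 89.9 to 109 TPM, log2 fold change 0.60, 0.35 without pig 34, limma adjusted p = 0.718). C1R was listed at 0 in all hearts, as were SLC40A1, FTL, MYH11, CSF3R and MPO of other lists. Without read counts or the annotation behind the values, a 0 in every heart does not show that the transcript was absent.

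Genes of heme handling, which macrophages need when they take up red cells, were listed for 11 of 16 and tested for 8, with 0 called. BLVRB, a biliverdin reductase, was at 14.5, 6.38 and 19.0 TPM in Group 1 against 21.4, 24.9 and 19.1 TPM in Group 2 (log2 fold change -0.78, -0.36 without pig 28, unadjusted p of 0.0439, limma adjusted p = 0.985). It was 1 of 8 with an unadjusted p under 0.05 in this comparison (4.97% of all genes). Of the 8, 2 did not overlap and were lower, against 7.32% of all genes. Of 16 receptors and bridges for the uptake of dead cells 9 were tested and 0 called. ANXA1, a phospholipid-binding protein of that list, had a log2 fold change of -0.81 for Group 1 over Group 3 (-0.53 without pig 27, limma adjusted p = 0.751). Among 7 other scavenger receptors tested, the oxidised LDL receptor OLR1 was at 19.9 to 31.0 TPM in Group 3, below the 33.3 to 47.1 TPM of Group 2 and the 35.2 to 62.7 TPM of Group 1. Its log2 fold change was -0.74 for Group 3 over Group 2 (limma adjusted p = 0.64; 14.7% of all genes did not overlap) and 1.01 for Group 1 over Group 3 (limma adjusted p = 0.466; 7.48%), and neither was called.

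Genes used to describe macrophage activation were read from lists of their own, which share CD86 and MSR1 with the list of further resident macrophage genes. Of 9 tested genes of classical activation, 4 had an unadjusted p under 0.05 and were higher in Group 1 than in Group 2, against 1.82% of all genes, but 0 were called. They were IL1A, PTGS2, CCL2 and CXCL8, with log2 fold changes of 1.58, 2.04, 0.95 and 2.48 and limma adjusted p-values of 0.344 or more. The same 4 genes had an unadjusted p under 0.05 against Group 3 (log2 fold changes 1.65, 1.94, 0.91 and 1.59; 2.78% of all genes), a comparison that shares the Group 1 hearts. Without pig 28 the CXCL8 values were 1.76 and 0.87. Endothelial cells, fibroblasts and cardiomyocytes make these mediators too, and the biopsies do not tell their source. Among 8 tested genes of alternative activation 1 was higher at this level in Group 1 than in Group 2 (IL10, log2 fold change 0.75; 1.82% of all genes), and 1 was lower in Group 3 than in Group 2 (IL4R, -0.76; 4.65% of all genes).

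Markers of other cells were measured beside these genes. The summed level of 7 listed cardiomyocyte genes was 23005 to 29932 TPM in Group 2, 18621 to 33656 in Group 1 and 23102 to 30601 in Group 3, the highest sums of the lists measured. Of 15 pan-leukocyte genes 9 were listed and tested, with sums of 144 to 186, 98.5 to 291 and 141 to 264 TPM in Groups 2, 1 and 3. All 9 had a higher mean of log2(TPM + 1) in Group 3 than in Group 2 (42.2% of all genes did), with 0 at an unadjusted p under 0.05 and a median log2 fold change of 0.24. Without pig 33 or without pig 34 it was 5 of 9, with medians of 0.015 and 0.20. The sum over 8 of 14 monocyte and recruited macrophage genes was 40.3 to 57.0, 27.5 to 91.8 and 15.5 to 318 TPM, with CCR2 below 1 TPM in all hearts. The 318 TPM were those of pig 34. PLAC8 of this list had a log2 fold change of 1.29 in Group 3 over Group 2, and of -0.32 without pig 34. T cell genes (8 of 9) stayed between 6.56 and 27.8 TPM. The part of leukocytes, monocytes and T cells in the member values was not tested.

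Neutrophil genes (4 of 8 listed) summed to 2.02 to 13.2 TPM in the SCS hearts, 0.356 to 3.89 in Group 1 and at most 0.343 in Group 3, with CSF3R and MPO listed at 0 in all hearts. Only S100A9 of these genes was tested, and in Group 3 it made up the whole sum. S100A9, which neutrophils and monocytes share, was at 8.02, 4.78 and 1.79 TPM in pigs 24, 25 and 29 and at 0.343, 0.199 and 0 TPM in pigs 31, 33 and 34 (unadjusted p of 0.000389, limma adjusted p = 0.14). Of all genes, 4.65% were lower there at an unadjusted p under 0.05, and 10.3% did not overlap and were lower. In Group 1 over Group 2 the log2 fold change of S100A9 was -1.35, also at an unadjusted p under 0.05 (4.97% of all genes) and not called. C1QA and LYVE1 had their highest means in Group 3, where S100A9 was lowest, and CD68 and MRC1 in Group 2, where it was highest. In Group 2 pigs 24, 25 and 29 stood in the same order in S100A9, CD68 and MRC1, and so did pigs 27, 28 and 30 of Group 1. In Group 3 the order of CD68 was the reverse of that of S100A9, at 15.8, 19.7 and 21.8 TPM in pigs 31, 33 and 34. MRC1 was lowest there in pig 31, where S100A9 was highest. The part of neutrophils and monocytes in the member values was not tested.

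Erythroid genes were at higher levels in most HOPE hearts. HBB, a hemoglobin chain, was at 70.8, 132 and 78.4 TPM in Group 2, at 73.5, 339 and 420 TPM in Group 1 and at 220, 368 and 220 TPM in Group 3. All 3 tested erythroid genes of 4 listed had an unadjusted p under 0.05 in Group 3 over Group 2 and were higher there (2.57% of all genes), and 0 were called. Pig 27, the heart lowest in CD68, MRC1 and LYVE1, was also the only HOPE heart with an HBB level in the range of the SCS hearts. The part of blood cells in the C1QA, LYVE1 and MRC1 values was not tested.

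Endothelial markers (6 of 9 listed) summed to 420 to 471 TPM in Group 2, 227 to 477 in Group 1 and 216 to 457 in Group 3. All 6 had a lower mean of log2(TPM + 1) in Group 1 than in Group 2 (64.1% of all genes) and 5 in Group 3 (57.7%), the direction of MRC1 and CD68, with 0 at an unadjusted p under 0.05. It was 4 of 6 lower without pig 27 in the first and without pig 31 in the second. Pigs 27 and 31, the hearts with the lowest MRC1, had the lowest endothelial sums of their groups, but also the lowest pan-leukocyte sums (98.5 and 141 TPM). In Group 2 pig 29 had the lowest MRC1 and pig 25 the lowest endothelial sum (420 TPM). Pig 30 had the highest endothelial sum of all hearts (477 TPM), with MRC1 below every SCS heart. After median-of-ratios scaling MRC1 was lowest in pig 30 (4.57), and pig 31 (6.40) lay above pig 29 (6.32). The part of endothelial transcripts in the MRC1 values was not tested.

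**Figure D4:**
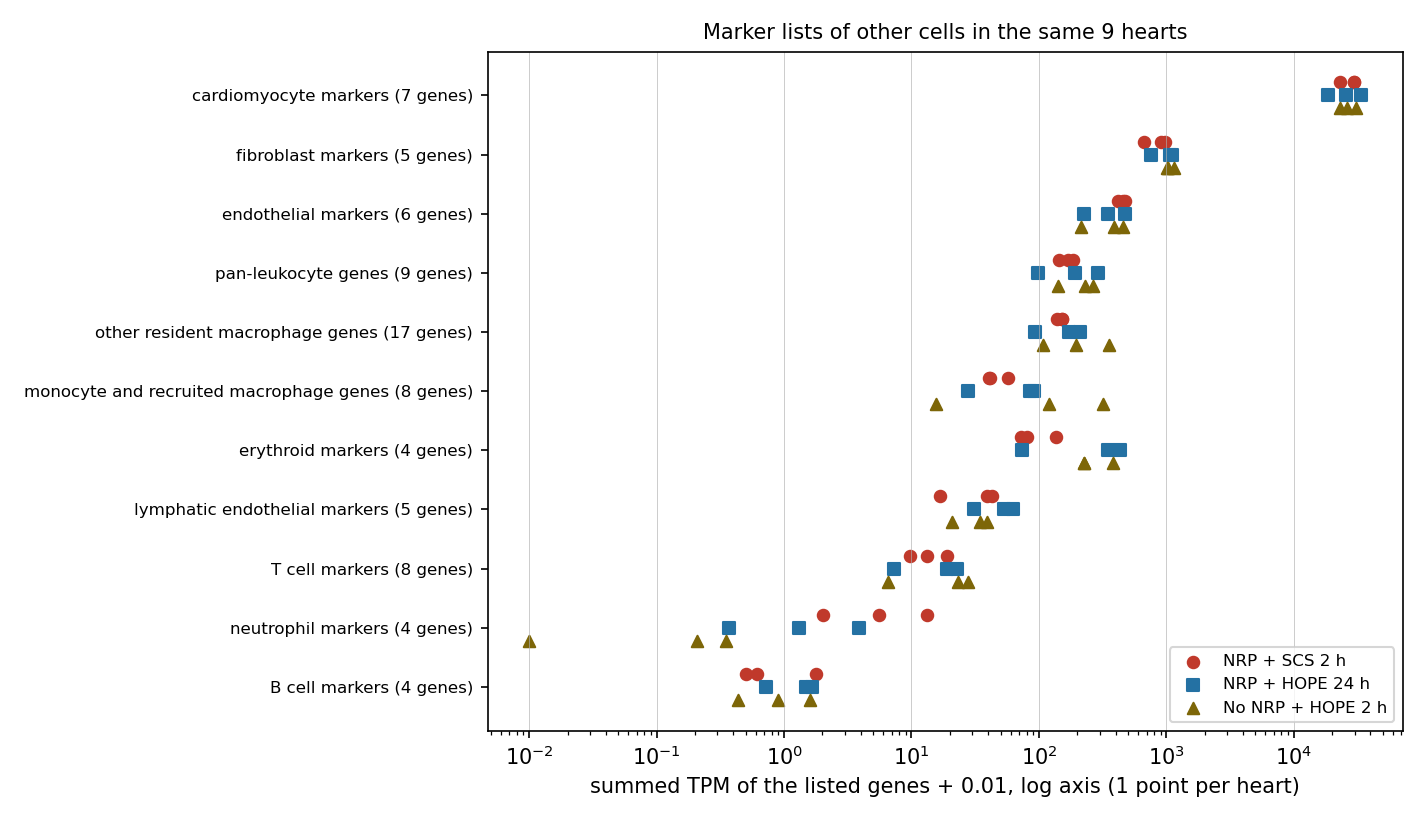
Summed TPM (+ 0.01, log axis) of marker lists of other cells, 1 point per heart and colour by group, with the number of listed genes in brackets. Cardiomyocyte markers lie between 18621 and 33656 TPM in every heart, the HOPE hearts except pig 27 lie above the SCS hearts in erythroid markers, and the hearts without NRP lie lowest in neutrophil markers.

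The genes whose levels were most like the members across the 9 hearts were taken from the 8462 tested genes with a symbol, by Pearson r of log2(TPM + 1). Against the mean of the 5 tested members the highest were CCDC90B (r = 0.95), BCAS3 (0.94), CD4 (0.92), EMILIN1 (0.92), CPSF3 (0.92), MAFK (0.91), CNN3 (0.91), SLC44A1 (0.91), GIMAP6 (0.90) and OSBP (0.90). CD4, the coreceptor of T helper cells, was the only gene among these 10 that belongs to an immune marker list used here. The nearest genes of single members were EPS8 (0.98), PTPRB (0.96) and DENR (0.95) for MRC1, of which PTPRB is a phosphatase of vascular endothelium, KANK1 (0.94), RIDA (0.93) and DLC1 (0.92) for CD68, and GPATCH1 (0.94), PMS2 (0.87) and SCARA5 (0.86) for LYVE1. For C1QA they were RARB (0.94), MAGEH1 (0.91) and LSM5 (0.90), and for CSF1R H2AFZ (0.91), CHD1 (0.88) and CLDN9 (0.88). These values describe 9 hearts that share their scaling, they are the highest of many, and no member was among the genes nearest to another because members were left out of the search.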

How the data were processed

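RNA sequencing of 9 porcine hearts, 1 apex biopsy each in 3 groups of 3, was analysed from a table of TPM with 4 decimals deposited by the authors. Per the submitters' processing notes and the study's methods, the authors trimmed reads with Trimmomatic 0.36, mapped them to the Sus scrofa genome with STAR 2.5.2b, counted them with featureCounts of Subread 1.5.2 and tested counts with DESeq2. The genome build and the gene lengths behind TPM are not given in the sources used here. The kit (NEBNext Ultra II RNA) does not mark strand. The 25149 genes add up to 1000000 TPM in each column, and 12006 of them have no symbol. From a name table that matched 11804 identifiers, 748 symbols were added by gene identifier. A further 9 columns belong to no sample of the series and were not used. TPM are no counts, so depth is unknown, no interval or floor for counting error is given, and precision is judged from the 3 hearts in each group. Each heart is 1 pig.

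Log2(TPM + 1) was fitted with limma 3.58.1 (R 4.3.3; eBayes with trend, two-sided) over all 9 hearts for the 11782 genes that reached 1 TPM in 3 or more hearts, with Benjamini-Hochberg adjustment over all of them, and the script was tested on simulated data. A fold change on this scale understates changes of low genes such as CSF1R. Exact two-sided permutation tests (scipy 1.17.1, Python 3.11.15) served for single values, and their smallest p with 3 hearts against 3 is 0.1. Alternatives tried were quantile normalization, median-of-ratios scaling, a filter at a mean TPM of 5, no filter, a pseudocount of 0.1, mitochondrially encoded genes left out, only the 6 hearts compared, eBayes without trend, robust eBayes, array weights (statmod 1.5.0) and each heart left out. All listed members are named. From the other lists, written from general knowledge, the 5 tested genes with the largest absolute fold change of a comparison and those with an unadjusted p under 0.05 could be named, and the genes most like the members were the 10 nearest to their mean and the 3 nearest to each; C2, C4A, SPI1, FOLR2 and MERTK come under the fold change rule. The members and lists were chosen with earlier results of these data known. Ratios between members, the alternatives for the CD68 and MRC1 correlation, and the lists with each heart left out were added after the values were seen. RefSeq annotation (Sscrofa11.1) was used only for neighbouring and overlapping genes, and no sequence or position is printed.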

Additional observations from a re-analysis of the deposited data

How the results depend on the processing

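The number of members called was 0 in all 3 comparisons under each of the 19 alternatives. Of 282 member fold changes recomputed, 274 kept their direction and 8 reversed. With array weights, C1QA in Group 1 over Group 2 was -0.24 and CSF1R in Group 3 over Group 2 was 0.16. With single hearts left out, C1QA in the first comparison ranged from -0.27 to 0.77 (-0.27 without pig 24, -0.12 without pig 29, -0.22 without pig 30), CSF1R in the second from -0.62 to 0.14 (0.14 without pig 29), and in Group 1 over Group 3 MRC1 from -0.23 to 0.057 and CD68 from -0.36 to 0.30 (0.057 and 0.30 without pig 27). Without turning sign, single hearts also moved CSF1R in the first comparison to between 0.16 and 0.85, and CD68 to between -0.85 and -0.18 in the first and between -0.73 and -0.32 in the second. The median of the members in Group 3 over Group 2 was 0.014 with a mean TPM of at least 5, where CSF1R drops out, 0.16 with array weights, and -0.37 to 0.14 with single hearts left out. With single hearts left out it was -0.50 to -0.12 in Group 1 over Group 2 (-0.12 without pig 27, -0.17 without pig 25, -0.50 without pig 30) and -0.36 to 0.057 in Group 1 over Group 3 (0.057 without pig 27), where a mean TPM of at least 5 gave -0.40. An unadjusted limma p under 0.05 was reached by C1QA in Group 3 over Group 2 with median-of-ratios scaling (log2 fold change 1.05, adjusted p = 0.397) and without pig 25 (1.59, adjusted p = 0.492), by LYVE1 in the comparison of the HOPE groups with mitochondrially encoded genes left out (-0.73, adjusted p = 0.525), with array weights (-0.73, adjusted p = 0.239), without pig 30 (-0.85) and without pig 34 (-0.89), and by CSF1R there without pig 33 (1.03). Median-of-ratios scaling moved the median of all genes from -0.12 to 0.0003 in Group 1 over Group 2. The number of genes called over the whole table, 3, 6 and 6 in the 3 comparisons and 12 over all groups, ranged from 0 to 60, 1 to 94, 0 to 16 and 1 to 124, with 60, 94 and 124 under array weights and 16 without pig 33. The r of CD68 and MRC1 lay between 0.75 (quantile normalization) and 0.98 (without pig 29) under other scalings or with 1 heart left out, was 0.83 without pig 27, and was 0.73 without pigs 24 and 27 together. Causes were not tested. No paired analysis was possible because the pigs, and so the replicate numbers, are not shared between groups.

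With 3 hearts a group, the intervals given for each member hold the differences that these data leave possible, and levels under 1 TPM (MARCO and most CSF1R values) have no known read support.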
